A study of Mus musculus with 6 samples.

Results

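Antigen presentation and co-stimulation were followed through muscle injury as a set of 33 genes, all of which were found among the 32285 genes measured. They were taken by gene symbol. Of these, 12 serve MHC class II presentation, 15 serve MHC class I presentation and 6 encode co-stimulatory or co-inhibitory surface molecules. Their transcripts were counted as unique molecular identifiers (UMIs, each standing for 1 captured transcript molecule) in single cells of the tibialis anterior, the muscle at the front of the shin, in wildtype mice. The groups were uninjured muscle (day 0) and muscle 1 day and 3 days after injection of cardiotoxin, a snake venom toxin that destroys muscle fibres, each collected at zeitgeber time 4 (ZT4) and ZT16, where zeitgeber time counts hours from lights on. Muscles of both hindlimbs were used, dead cells were excluded by propidium iodide in the sort, and muscle fibres, which hold many nuclei, were not part of the collected mononucleated cells. Strain, sex, age and the number of animals pooled are not given in the labels used here.

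The 6 groups have 1 library each. Differences therefore carry no check by replicates, no test was made, and all intervals cover counting error only. The libraries held 68724 barcodes and between 72747703 and 132221721 UMIs, and 58469 cells were kept. Median UMIs per kept cell ran from 3173 to 11125 and were highest on day 3. Cells were clustered without the 33 genes and without any other H2 gene, so that the classes do not rest on the genes described, and classes carry the ending -like because their names come from marker lists. Levels are given as CPM, the UMIs of a gene scaled to 1000000 UMIs of a class in a library, and a class was used in a library where it had at least 50 cells, which left 62 groups of cells in 17 classes. CPM is a share of the RNA of a class, so fewer transcripts per cell and fewer cells carrying them cannot be told apart from a level alone.

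MHC class II molecules show peptides from engulfed material to CD4 T cells. H2-Aa, H2-Ab1 and H2-Eb1 encode their chains, Cd74 the invariant chain that guards the groove, H2-DMa, H2-DMb1 and H2-DMb2 the peptide exchanger, H2-Oa and H2-Ob its inhibitor, Ctss a protease and Ifi30 a reductase that prepare peptides, and Ciita the transactivator that switches the chains on. MHC class I molecules show peptides from inside the cell to CD8 T cells. H2-K1 and H2-D1 encode classical heavy chains, H2-T23, H2-Q4, H2-Q7 and H2-M3 non-classical ones, B2m the shared light chain, Psmb8, Psmb9 and Psmb10 the immunoproteasome, Tap1 and Tap2 the peptide transporter, Tapbp the loading factor tapasin, Erap1 a trimming peptidase and Nlrc5 the class I transactivator. Cd80 and Cd86 are ligands of CD28 and CTLA4, Cd40 receives help from T cells, Cd83 stabilises surface MHC class II, and Cd274 (PD-L1) and Pdcd1lg2 (PD-L2) are ligands of the inhibitory receptor PD-1.

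Of the 33 genes, 19 lie on chromosome 17 of GRCm38 between 33915899 and 37274484, in the mouse MHC. Promoter sequences were taken from RefSeq (GRCm38.p6), which held 25 of the 33, and the last 150 bases before the annotated start of 4 of them are shown because their genes carry the results below. Capitals mark matches to the Y box ATTGG, the X box core (AG, 2 bases of any kind, AC, 1 base of any kind, GATG) and the interferon-stimulated response element (GAAA, 2 bases of any kind, GAAA), each searched on both strands. H2-Aa lies on the minus strand with its window at chr17:34287824-34287973, H2-Eb1 on the plus strand at chr17:34305717-34305866, H2-K1 on the minus strand at chr17:34000348-34000497 and B2m on the plus strand at chr2:122147536-122147685.
H2-Aa: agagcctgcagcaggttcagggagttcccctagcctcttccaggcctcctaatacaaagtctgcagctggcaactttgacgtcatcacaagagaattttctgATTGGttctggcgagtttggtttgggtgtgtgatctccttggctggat
H2-Eb1: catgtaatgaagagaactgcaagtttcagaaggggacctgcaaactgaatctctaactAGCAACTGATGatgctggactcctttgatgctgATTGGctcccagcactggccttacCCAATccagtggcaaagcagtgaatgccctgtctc
H2-K1: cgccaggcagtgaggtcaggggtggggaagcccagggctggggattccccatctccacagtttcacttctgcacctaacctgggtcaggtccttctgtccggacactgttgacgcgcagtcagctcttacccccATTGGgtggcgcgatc
B2m: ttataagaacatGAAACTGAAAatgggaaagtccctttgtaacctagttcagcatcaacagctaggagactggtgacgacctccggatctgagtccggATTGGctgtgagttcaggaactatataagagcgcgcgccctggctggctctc

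Across promoter windows of 250 bases before the start, the X box core was found in 3 of the 9 class II genes with a window (H2-Eb1, H2-DMb1 and H2-Oa), in 1 of 13 class I genes (Psmb10) and in 0 of 3 co-stimulation genes, against 0.818% of all 32536 windows. The Y box was found in 7 of 9 class II, 10 of 13 class I and 0 of 3 co-stimulation windows, against 33.8% of all. The interferon-stimulated response element was found in Ctss, B2m and H2-T23, against 2.98% of all. The gamma-activated site TTCNNNGAA was found in H2-DMb2, Psmb8 and H2-M3, against 7.04% of all, and the E box CACGTG, the motif of the core clock activators, in Ifi30, Psmb10 and Erap1, against 6.04% of all. These matches are descriptions of letters and not of bound sites. H2-Ab1, Cd74, Ciita, Tap2, Nlrc5, Cd86, Cd40 and Cd83 had no entry.

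The class II chains were carried by few kinds of cell. The summed level of H2-Aa, H2-Ab1, H2-Eb1 and Cd74 was highest in dendritic cells of the cDC2-like class (conventional dendritic cells marked by Cd209a, Flt3 and Zbtb46), at 59035 and 57290 CPM on day 0 (ZT4 and ZT16, the order used throughout), 39193 and 43759 CPM on day 1, and 66965 and 60574 CPM on day 3. Resident macrophage-like cells (marked by Lyve1, Cd163 and Folr2) held 29267 and 21669 CPM on day 0, and the B cell-like class of the day 0 ZT4 library 29731 CPM. Among classes with at least 50 cells, those above 10000 CPM numbered 3 and 2 in the day 0 libraries, 2 and 1 in those of day 1, and 5 and 4 in those of day 3. These counts follow class size as well as level, since cDC1-like and mature dendritic-like cells were too few to be counted before day 3.

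**Figure D1:**
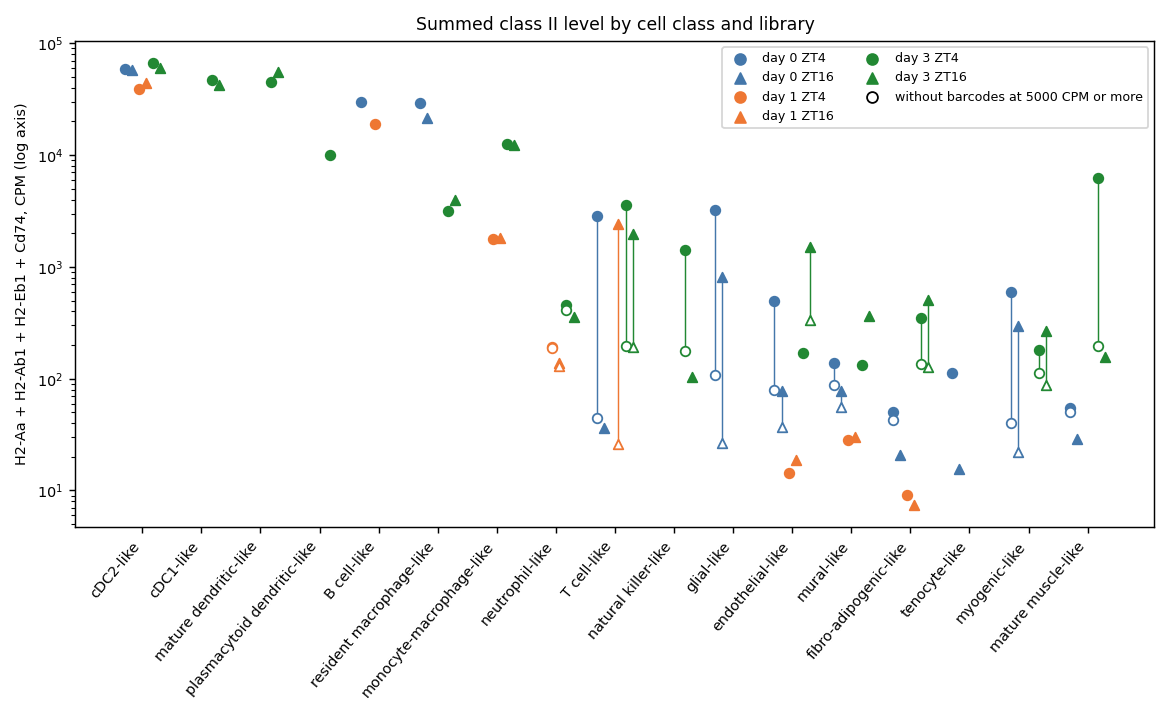
Summed CPM of H2-Aa, H2-Ab1, H2-Eb1 and Cd74 in each class (log axis), with 1 point per library, circles for ZT4, triangles for ZT16 and colours for days. Open symbols leave out barcodes at 5000 CPM or more for neutrophils and classes that do not present antigen. The cDC2-like class sits highest in every library, and monocyte-macrophage-like cells lie at 1774 and 1821 CPM on day 1 and at 12547 and 12338 CPM on day 3.

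Within the antigen-presenting classes the members divided by role. H2-Aa, H2-Ab1, H2-Eb1, Cd74, H2-DMa, H2-DMb1 and Ciita reached their highest level of any class and library in cDC2-like cells, among them Cd74 at 31099 CPM on day 0 at ZT4 and Ciita at 182 CPM on day 3 at ZT16. H2-DMb2, H2-Oa and H2-Ob, the second DM beta chain and the DM inhibitor, reached their highest levels in the B cell-like class of the day 0 ZT4 library, at 495, 282 and 481 CPM, where the cDC2-like cells of the same library held 194, 21.2 and 30.6 CPM. H2-DMb1, the other DM beta chain, had the reverse order, with 125 CPM in B cell-like and 1071 CPM in cDC2-like cells. The last 500 bases of H2-DMb1 and H2-DMb2 share 20.4% and 13.7% of their 50-base words with other genes, so some reads between them are uncertain. Ctss was highest in monocyte-macrophage-like cells of day 3, at 4000 CPM at ZT4.

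Class I genes and co-stimulatory genes were highest in other cells, with the order taken over the named classes only. Mature dendritic-like cells (marked by Ccr7, Fscn1 and Il4i1) of day 3 held the highest H2-D1 (3373 CPM), B2m (3693 CPM), Psmb8 (1714 CPM), Tap1 (229 CPM), Tapbp (330 CPM), Nlrc5 (68.3 CPM), Cd40 (186 CPM), Cd83 (939 CPM) and Cd274 (153 CPM). T cell-like cells of day 3 held the highest H2-K1 (2811 CPM), H2-Q7 (938 CPM), Psmb10 (363 CPM) and Tap2 (144 CPM), and plasmacytoid dendritic-like cells of day 3 the highest H2-T23 (1235 CPM) and H2-M3 (152 CPM). Some ranks were close, with 936 CPM of H2-Q7 in natural killer-like cells (day 3 ZT16) and 225 CPM of Tap1 in cDC1-like cells (day 3 ZT4). Psmb9 was highest in cDC1-like cells, the Xcr1 and Clec9a dendritic cells known for showing engulfed antigen on class I, at 744 CPM. Endothelial-like cells of day 0 had the highest H2-Q4, at 130 CPM, and those of day 3 the highest Erap1, at 53.4 CPM. Cd80 and Pdcd1lg2 were highest in neutrophil-like cells and Cd86 in resident macrophage-like cells. Cluster 104 of day 3, which has no class name, held more Tap1 (300 and 260 CPM), Cd40 (193 CPM at ZT4) and Cd86 (179 and 173 CPM) than any of these. H2-T23 and H2-Q4 share 23.9% and 21.3% of the words of their last 500 bases with other genes and are less certain for that reason. Psmb9 and Tap1 overlap on opposite strands, and the labels do not say whether strand was used in counting.

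**Figure D2:**
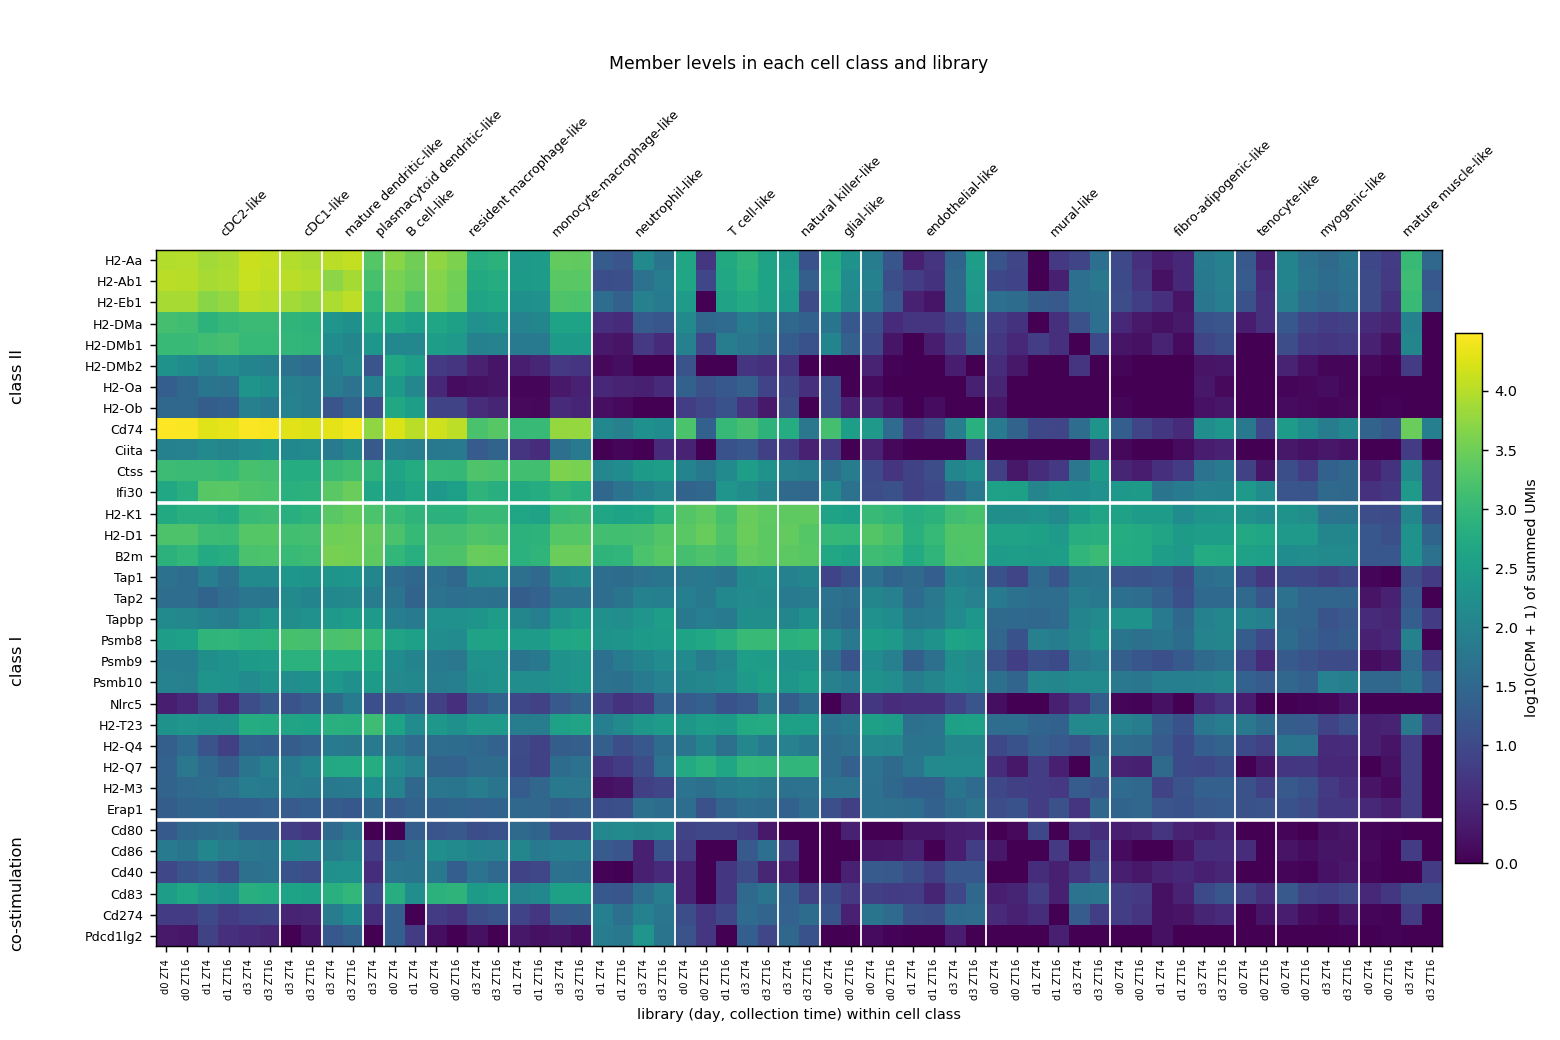
Level of each of the 33 genes (rows, by role) in 62 class and library groups (columns), coloured by log10(CPM + 1). Class II genes are bright in the dendritic, B cell and macrophage-like columns, while class I genes are spread over nearly all columns. Co-stimulatory genes are mostly dim outside immune cells, with Cd274 of endothelial-like cells (55.1 and 36.1 CPM on day 0) among the exceptions.

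The comparison with the most members called was that of monocyte-macrophage-like cells between day 1 and day 3. These cells, named by a list of monocyte and macrophage markers, numbered 3945 and 4174 on day 1 and 4362 and 4110 on day 3. A gene was called by day where it differed by at least 2-fold in the same direction at both ZT4 and ZT16, with at least 30 UMIs over the libraries compared at each time. All 33 genes met the UMI minimum, 23 were called higher on day 3 and 1 lower, where 13% and 5.64% of the 12053 genes tested were called higher and lower. The higher genes were 10 of 12 class II, 10 of 15 class I and 3 of 6 co-stimulation genes. Of the class II genes called, H2-Oa (0.166 and 0.136 CPM, then 0.988 and 1.58 CPM) and H2-Ob (0.285 and 0.272 CPM, then 2.55 and 1.97 CPM) were at very low levels on both days. The medians of the log2 ratio were 2.49 and 2.66 over the class II genes, 1.32 and 1.73 over the class I genes and 0.61 and 0.90 over the co-stimulation genes, against 0.06 and 0.07 over all genes tested. The class is mostly clusters 0 and 6 on day 1 and clusters 1 and 2 on day 3. Whether the day 3 cells descend from the day 1 cells cannot be told from these libraries.

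The class II chains rose together by this rule. H2-Aa stood at 267 and 288 CPM on day 1 and at 2587 and 2462 CPM on day 3, a log2 ratio of 3.28 (95% interval 3.25 to 3.30) at ZT4 and 3.10 (3.07 to 3.12) at ZT16. The paired chain H2-Ab1 stood at 282 and 290 CPM and then at 2227 and 2200 CPM, and H2-Eb1 at 177 and 187 CPM and then at 1797 and 1687 CPM. Cd74 stood at 1048 and 1056 CPM and then at 5936 and 5990 CPM. In each of these genes both day 3 libraries lay far above both day 1 libraries. Ciita, their transactivator, stood at 3.89 and 2.74 CPM on day 1 and 44.9 and 67.1 CPM on day 3, with log2 ratios of 3.52 (3.30 to 3.77) and 4.61 (4.39 to 4.85). The peptide exchanger was also called higher (H2-DMa at 97.4 and 114 CPM, then 398 and 411 CPM), as was the protease Ctss, at 1339 and 1362 CPM and then 4000 and 3877 CPM. Ifi30, the reductase, was not called, at 543 and 601 CPM and then 887 and 722 CPM, and nor was H2-DMb2.

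More barcodes stood at high class II on day 3, and the summed level over the other barcodes was also higher. Barcodes in which the 3 chains and Cd74 made up 5000 CPM or more were 311 of 3945 (7.88%, exact 95% interval 7.06 to 8.77) and 374 of 4174 (8.96%, 8.11 to 9.87) on day 1, and 2076 of 4362 (47.6%, 46.1 to 49.1) and 2102 of 4110 (51.1%, 49.6 to 52.7) on day 3. On day 1 these barcodes held 81.1% and 79.3% of the class II UMIs of the class, and on day 3 they held 95.4% and 95.5%. The summed level over the other barcodes was 365 and 414 CPM on day 1 and 1047 and 1092 CPM on day 3. Barcodes with 0 class II UMIs were 43.0% and 36.7% of the class on day 1 and 6.53% and 5.82% on day 3. The level over the other barcodes therefore mixes more positive cells with the level per cell. The estimated share of free RNA in the class was 4.2% and 4.1%, then 7.9% and 6.8%, and its part was not tested. With every cell thinned to 1000 UMIs, H2-Aa was found in 8.14% (7.30 to 9.04) and 9.75% (8.86 to 10.7) of cells on day 1 and in 51.4% (49.9 to 52.9) and 53.5% (52.0 to 55.1) on day 3. Between 9 and 36 cells a library were too shallow to be thinned. Unthinned shares were 16% and 22.5%, then 73.2% and 74.6%. In neutrophil-like cells, which held little class II, the thinned share was 1.49% and 1.15% on day 1 and 7.86% and 3.57% on day 3. Their estimated share of free RNA was 3.9% and 5.2%, then 2.6% and 0%, so they set no bound on background in monocyte-macrophage-like cells. Median UMIs per cell were 2178 to 2474 in neutrophil-like and 10023 to 13478 in monocyte-macrophage-like cells.

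**Figure D3:**
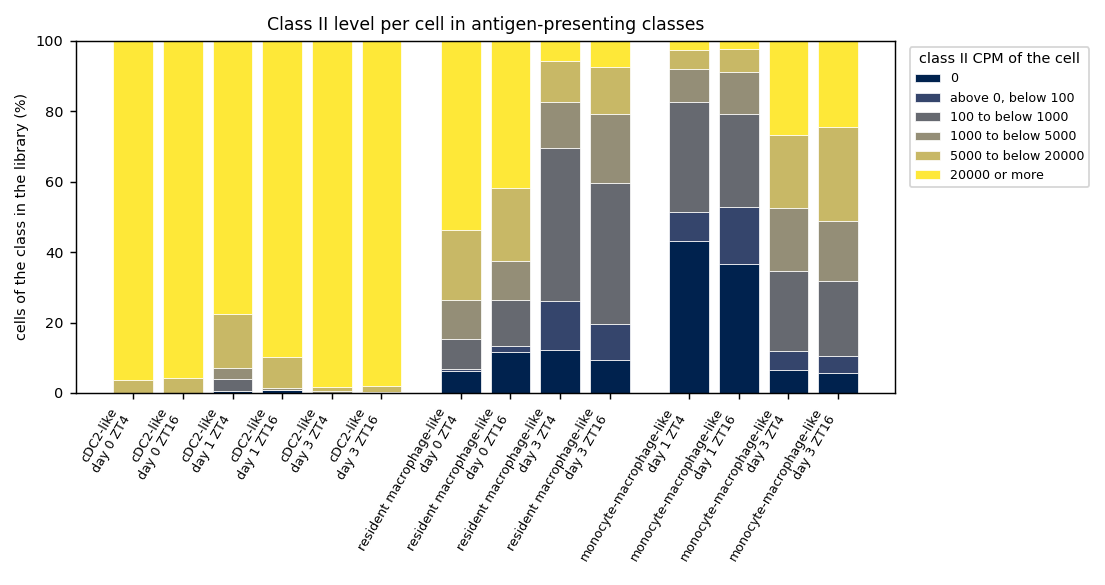
Share of cells (%) by the summed CPM of H2-Aa, H2-Ab1, H2-Eb1 and Cd74 in each barcode, as stacked bars per library for cDC2-like, resident macrophage-like and monocyte-macrophage-like cells. In cDC2-like cells at least 92.8% of barcodes lie at 5000 CPM or more in every library, in resident macrophage-like cells that share falls from 73.5% and 62.5% on day 0 to 17.3% and 20.7% on day 3, and in monocyte-macrophage-like cells it is 7.88% and 8.96% on day 1 and 47.6% and 51.1% on day 3.

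The clusters within the class differed. On day 1 the small cluster 1 (118 and 215 cells) already held 3191 and 2773 CPM of H2-Aa, against 204 and 173 CPM in cluster 0 and 162 and 181 CPM in cluster 6. On day 3, where cluster 1 had 2551 and 1675 cells and cluster 2 had 1647 and 2315 cells, H2-Aa was 2338 and 2104 CPM in cluster 1 and 3113 and 2728 CPM in cluster 2. Within cluster 1, H2-Aa was lower on day 3 than on day 1 at both times. Clusters 1 and 2 of day 3 lay further apart in 4 other members, which are named here after their values were seen. Tap1 was 61.6 and 67.0 CPM in cluster 1 and 199 and 180 CPM in cluster 2, and H2-Q7 was 19.5 and 18.8 CPM against 67.3 and 71.7 CPM. Cd40 was 26.4 and 18.8 CPM against 79.9 and 61.0 CPM, and Cd274 was 7.88 and 7.51 CPM against 36.7 and 30.8 CPM. Others lay closer, such as B2m at 2525 and 2339 CPM against 3673 and 3374 CPM and Cd86 at 81.3 and 66.9 CPM against 94.6 and 94.2 CPM, and Cd83 was the higher in cluster 1, at 375 and 409 CPM against 339 and 321 CPM. Cluster 2 was led by the interferon-induced genes Cxcl10, Ifit2 and Ifit3, so its Tap1, Cd274 and H2-Q7 levels come from cells chosen in part by genes of that response.

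Class I genes moved less than class II genes in these cells. B2m stood at 742 and 876 CPM on day 1 and 2929 and 2901 CPM on day 3 (log2 ratios 1.98 and 1.73). H2-K1 stood at 431 and 384 CPM and then 1113 and 1190 CPM, and H2-D1 at 778 and 804 CPM and then 2026 and 2006 CPM. H2-T23, the Qa-1 heavy chain, a ligand of NKG2 receptors on lymphocytes, stood at 76.7 and 76.7 CPM and then 377 and 426 CPM (2.30 and 2.47), and H2-Q7 at 9.28 and 6.39 CPM and then 37.3 and 48.3 CPM (2.0 and 2.92). Tap1 (45.2 and 33.1 CPM, then 112 and 130 CPM) and Nlrc5 (8.24 and 6.39 CPM, then 16.9 and 25.7 CPM) were called higher. Of the immunoproteasome, Psmb9 was called higher, while Psmb8 (294 and 287 CPM, then 458 and 502 CPM) and Psmb10 were not. Erap1, Tapbp and H2-M3 were also not called.

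The co-stimulatory genes did not move as a block. Cd40 stood at 7.41 and 8.16 CPM on day 1 and 46.0 and 42.2 CPM on day 3 (log2 ratios 2.63 and 2.37), Cd83 at 103 and 123 CPM and then 362 and 357 CPM, and Cd274 at 7.0 and 4.18 CPM and then 18.3 and 20.4 CPM. Cd80 went the other way, from 35.3 and 26.6 CPM to 10.7 and 10.7 CPM (log2 ratios -1.72 and -1.31). Cd86, the other CD28 ligand, was not called, at 114 and 68.4 CPM and then 86.3 and 82.0 CPM, and neither was Pdcd1lg2, which was below 1 CPM in all 4 libraries.

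Of the wider pathway, all 15 interferon response genes in the list were called higher in these cells, among them Iigp1, a GTPase induced by interferon, at 0.0237 and 0.0850 CPM and then 27.9 and 66.4 CPM, and Cxcl9, a chemokine for T cells, at 0.190 and 0.0170 CPM and then 15.3 and 30.6 CPM. Of 14 other class I pathway genes 5 were called higher. Of 16 other class II pathway genes 4 were called higher, including Rfx5, which binds the X box (1.90 and 1.65 CPM, then 5.24 and 5.33 CPM), and Irf8 (96.6 and 116 CPM, then 299 and 390 CPM), and the protease Ctsl was called lower (1494 and 1657 CPM, then 507 and 372 CPM). Of 9 other co-stimulation genes tested, Il15, Cd276 and Icosl were called higher and Cd24a lower.

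**Figure D4:**
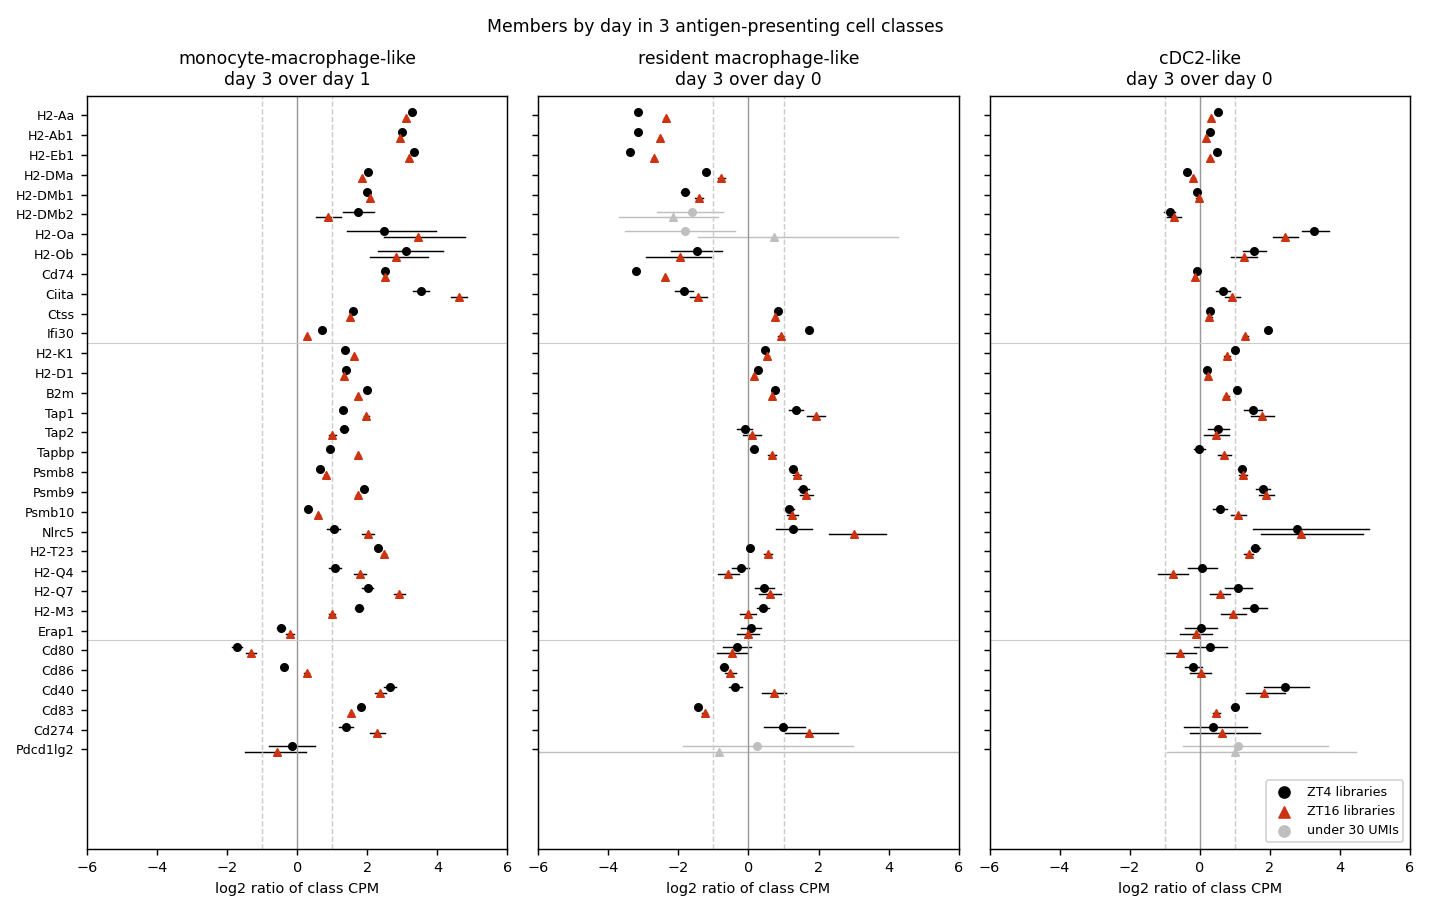
Log2 ratio of each gene with its 95% counting interval for monocyte-macrophage-like cells (day 3 over day 1), resident macrophage-like cells (day 3 over day 0) and cDC2-like cells (day 3 over day 0), with black circles for ZT4, red triangles for ZT16, grey below 30 UMIs, and dashed lines at a 2-fold difference. Class II chains lie right of the line in the first panel (H2-Aa at 3.28 and 3.10), left of it in the second (H2-Aa at -3.14 and -2.37) and inside it in the third (H2-Aa at 0.52 and 0.32).

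Resident macrophage-like cells had the opposite class II pattern. There were 984 and 640 of these cells on day 0, mostly cluster 13, and 770 and 696 on day 3, mostly cluster 14, and too few on day 1 to compare. H2-Aa stood at 5566 and 4000 CPM on day 0 and at 630 and 776 CPM on day 3, a log2 ratio of -3.14 (-3.18 to -3.10) at ZT4 and -2.37 (-2.41 to -2.33) at ZT16. H2-Ab1 stood at 4761 and 3435 CPM and then 534 and 600 CPM, H2-Eb1 at 4324 and 3217 CPM and then 412 and 491 CPM, and Cd74 at 14616 and 11016 CPM and then 1587 and 2127 CPM. In all 4 genes both day 3 libraries lay below both day 0 libraries. Ciita (64.5 and 74.3 CPM, then 18.1 and 27.5 CPM) and H2-DMb1 (322 and 269 CPM, then 92.5 and 101 CPM) were called lower as well. Of the 30 genes with enough UMIs, 8 were called lower and 5 higher, where 8.39% and 4.73% of all genes tested were called lower and higher. With the 33 genes also used for clustering, 5 genes in place of 8 were called lower.

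The class II genes and the class I genes parted in these cells. The median log2 ratio was -1.82 and -1.69 over the 10 class II genes tested, 0.44 and 0.61 over the 15 class I genes, and -0.14 and -0.13 over all genes. The genes called higher were the immunoproteasome subunits Psmb8 (161 and 149 CPM, then 387 and 389 CPM), Psmb9 (67.3 and 58.8 CPM, then 199 and 185 CPM) and Psmb10 (76.6 and 84.7 CPM, then 172 and 202 CPM), the transporter Tap1 (42.5 and 31.6 CPM, then 109 and 120 CPM) and the transactivator Nlrc5 (6.14 and 3.19 CPM, then 15 and 26.5 CPM). The heavy chains and the light chain were not called. H2-K1 stood at 758 and 753 CPM and then 1050 and 1078 CPM, H2-D1 at 1458 and 1401 CPM and then 1767 and 1564 CPM, and B2m at 1685 and 1704 CPM and then 2842 and 2729 CPM. Within class II, the protease Ctss (1026 and 990 CPM, then 1823 and 1680 CPM) and Ifi30 (246 and 349 CPM, then 819 and 659 CPM) were not called and did not follow the chains.

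The lower class II level came with fewer cells at high class II. Barcodes at 5000 CPM or more were 723 of 984 (73.5%, 70.6 to 76.2) and 400 of 640 (62.5%, 58.6 to 66.3) on day 0 and 133 of 770 (17.3%, 14.7 to 20.1) and 144 of 696 (20.7%, 17.7 to 23.9) on day 3. The other barcodes held 1212 and 870 CPM on day 0 and 558 and 727 CPM on day 3. In cells thinned to 1000 UMIs, H2-Aa was found in 72.9% and 61.8% on day 0 and in 22.4% and 26.0% on day 3, and unthinned in 81.3% and 74.1% and then 49.5% and 56.5%. Whether the day 3 cells descend from the day 0 cells cannot be told from these libraries.

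Among the co-stimulatory genes of resident macrophage-like cells, Cd83 was called lower, at 763 and 843 CPM and then 280 and 356 CPM. Cd86 stood at 170 and 137 CPM and then 105 and 95.9 CPM, Cd40 at 64.8 and 20.6 CPM and then 49.8 and 34.0 CPM, and Cd274 at 5.22 and 4.03 CPM and then 10.4 and 13.7 CPM, and none of these was called. In the same comparison 10 of 11 genes of the dissociation response (immediate early and heat shock genes that tissue digestion can induce) were called lower, with summed levels of 23041 and 23971 CPM on day 0 and 6593 and 7989 CPM on day 3. Their part in the difference of Cd83 was not tested. Of 14 interferon response genes tested 12 were called higher, such as Isg15 at 45.5 and 34.4 CPM and then 462 and 656 CPM. Of 16 other class II pathway genes Ctsd and Ctsl were called higher and Irf4 (92.0 and 62.0 CPM, then 17.6 and 16.5 CPM) and Cd1d1 lower.

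In cDC2-like cells the class II chains were high on all days and other members differed by day. There were 191 and 168 of these cells on day 0 (mostly cluster 30), 235 and 203 on day 1 (mostly cluster 103), and 728 and 484 on day 3 (mostly clusters 100, 101 and 105). The days thus hold mostly different clusters, so a change within cells cannot be told from a change in the kind of cDC2-like cell. H2-Aa stood at 9455 and 9724 CPM on day 0, 7335 and 8220 CPM on day 1, and 13558 and 12151 CPM on day 3. H2-Ab1 stood at 10534 and 10227 CPM, 7881 and 8614 CPM, and 12859 and 11714 CPM, and H2-Eb1 at 7947 and 8104 CPM, 4939 and 6017 CPM, and 11306 and 10009 CPM. For these 3 chains both day 1 libraries were lowest and both day 3 libraries highest, though no pair of days was called by the 2-fold rule at both times. Cd74 stood at 31099 and 29235 CPM, 19038 and 20908 CPM, and 29242 and 26701 CPM.

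On day 1 against day 0, 30 of the 33 genes had enough UMIs in cDC2-like cells, 4 were called higher and 0 lower, where 3.84% and 10.5% of all genes were. The 4 genes were Ifi30 (471 and 683 CPM, then 2089 and 2185 CPM), Psmb8 (322 and 344 CPM, then 865 and 900 CPM), Psmb9 (81.4 and 82.0 CPM, then 169 and 200 CPM) and Psmb10 (98.4 and 91.0 CPM, then 209 and 206 CPM). With no doublets removed, 2 genes in place of 4 were called higher. Only 6 of the 15 interferon response genes had enough UMIs, and of these Isg15 was called higher and Gbp2 and Socs1 lower. All 11 dissociation response genes were called lower on day 1, and Irf4, Cd1d1 and Irf1 were also called lower.

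From day 0 to day 3, 32 of the 33 genes had enough UMIs, 9 were called higher and 0 lower, where 5.24% and 7.06% of all genes were. These comparisons share the day 0 libraries. The day 3 medians were 0.41 and 0.29 over class II genes, 1.06 and 0.79 over class I genes and 0.38 and 0.47 over the 5 co-stimulation genes tested, against -0.20 and -0.13 over all genes. H2-Oa, a chain of the DM inhibitor, stood at 21.2 and 31.2 CPM on day 0, 54.4 and 48.3 CPM on day 1, and 207 and 171 CPM on day 3, with log2 ratios of day 3 over day 0 of 3.28 (2.92 to 3.68) and 2.44 (2.11 to 2.82). Its partner chain H2-Ob stood at 30.6 and 30.8 CPM, 20.5 and 23.8 CPM, and 89.5 and 73.8 CPM. Nlrc5 stood at 1.39 and 2.14 CPM, 6.70 and 2.16 CPM, and 10.6 and 17.3 CPM, and Tap1 at 46.9 and 39.7 CPM, 82.0 and 49.0 CPM, and 135 and 138 CPM. For H2-Oa, H2-Ob, Nlrc5 and Tap1 both day 3 libraries lay above all 4 earlier ones. H2-T23 (198 and 217 CPM, then 596 and 574 CPM), Psmb8, Psmb9, Ifi30 and Cd40 were the other genes called higher.

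Classical class I genes of cDC2-like cells were not called from day 0 to day 3. H2-K1 and B2m reached 2-fold at ZT4 but not at ZT16. H2-K1 stood at 529 and 685 CPM on day 0 and 1061 and 1183 CPM on day 3, H2-D1 at 1755 and 1736 CPM and then 2016 and 2052 CPM, and B2m at 759 and 959 CPM and then 1583 and 1631 CPM. Of 15 interferon response genes 11 were called higher, such as Ifit3 at 0.695 and 1.71 CPM and then 117 and 167 CPM. From day 1 to day 3, 6 of 32 genes were called higher (H2-Oa, H2-Ob, B2m, H2-T23, Cd40 and Cd83) and 0 lower, where 5.9% and 3.05% of all genes were. In that comparison 8 of the 11 dissociation response genes were also called higher.

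Co-stimulatory genes of cDC2-like cells differed in course. Cd86 stood at 68.8 and 55.5 CPM on day 0, 115 and 79.3 CPM on day 1, and 61.0 and 56.7 CPM on day 3, so that both day 1 libraries were highest without passing 2-fold at both times. Cd40 stood at 8.0 and 13.7 CPM, 18.5 and 10.5 CPM, and 43.9 and 49.8 CPM. Cd83 stood at 329 and 440 CPM, 256 and 207 CPM, and 659 and 611 CPM. Cd274 stayed between 5.05 and 8.68 CPM in all 6 libraries. These levels leave out the unnamed cluster 104 (97 and 134 cells on day 3), whose best match was cDC2 with 8 markers. That cluster held more Cd86, Cd40 and Cd274 than the cDC2-like class of day 3. The courses of these genes with it included were not tested.

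The other dendritic classes were large enough on day 3. Mature dendritic-like cells (58 and 59 cells) held 10616 and 11995 CPM of H2-Aa, where cDC2-like cells of the same libraries held 13558 and 12151 CPM. The peptide exchanger differed more, at 219 and 177 CPM of H2-DMa and 155 and 113 CPM of H2-DMb1, against 1160 and 1138 CPM and 1020 and 1024 CPM in cDC2-like cells. Mature dendritic-like cells held more B2m (3693 and 3554 CPM), H2-K1 (2212 and 2661 CPM), Psmb8 (1590 and 1714 CPM), Cd40 (179 and 186 CPM) and Cd274 (76.5 and 153 CPM) than cDC2-like cells of the same libraries. Cd86 in them was 78.3 and 109 CPM. The cDC1-like cells (272 and 167) held 9540 and 8408 CPM of H2-Aa, 1509 and 1442 CPM of Psmb8, 225 and 212 CPM of Tap1, and 113 and 99.0 CPM of Cd86. Plasmacytoid dendritic-like cells at ZT4 (54 cells) held 2013 CPM of H2-Aa and 5.74 CPM of Cd86. In B cell-like cells, compared at ZT4 only, H2-Aa was 5031 CPM on day 0 (123 cells) and 3329 CPM on day 1 (57 cells), and Cd83 was 631 and 161 CPM.

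**Figure D5:**
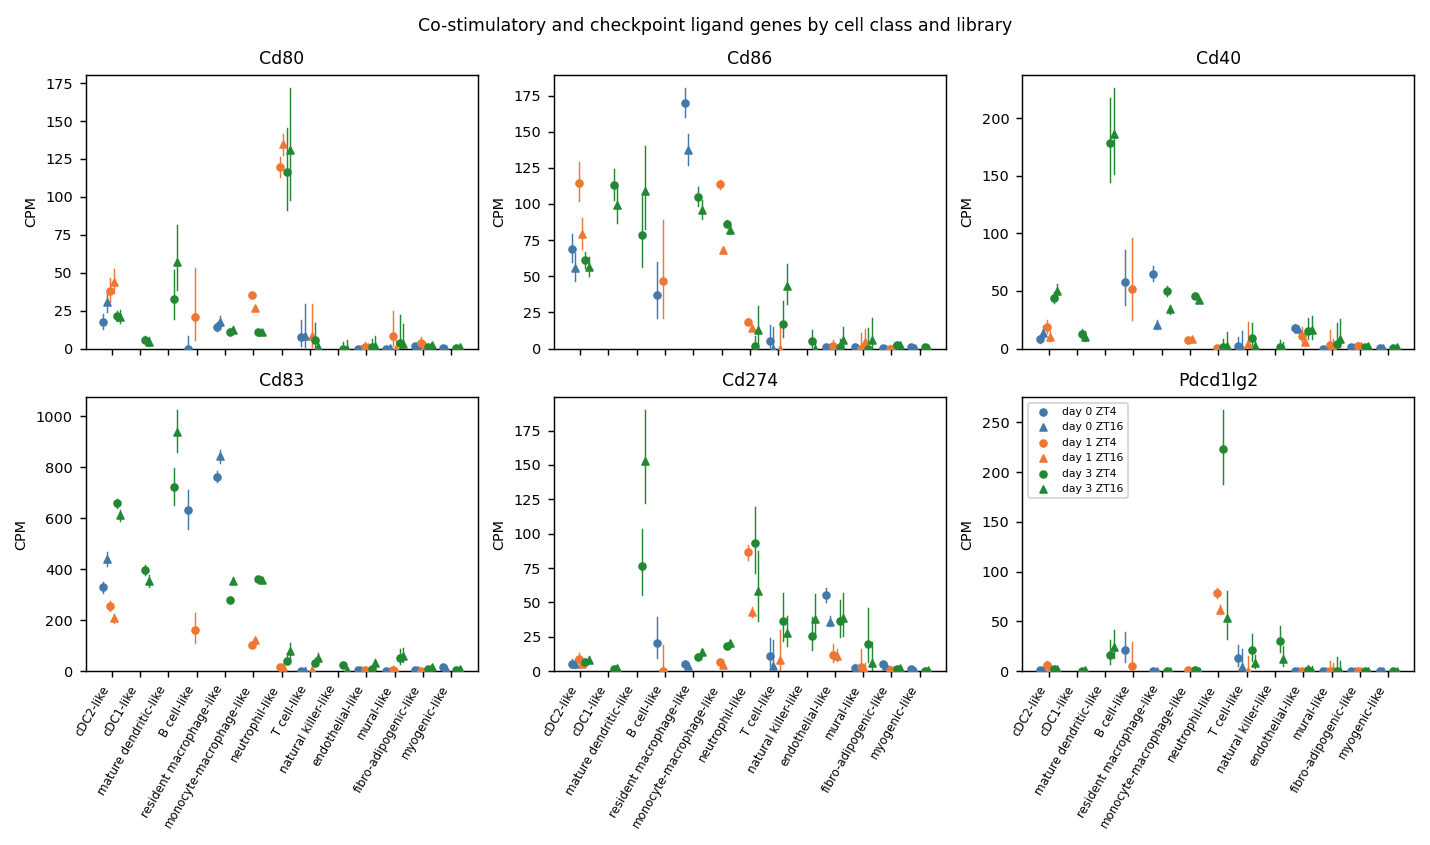
CPM of Cd80, Cd86, Cd40, Cd83, Cd274 and Pdcd1lg2 by class and library, with 95% Poisson intervals for counting error. Cd80 and Pdcd1lg2 are highest in neutrophil-like cells (135 and 223 CPM at most), Cd86 in resident macrophage-like cells (170 CPM), and Cd40, Cd83 and Cd274 in mature dendritic-like cells (186, 939 and 153 CPM).

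Neutrophil-like cells, early arrivals at injury, held little class II but 3 co-stimulation genes. Cd80 stood at 120 and 135 CPM on day 1 (4813 and 4221 cells) and 116 and 131 CPM on day 3 (282 and 173 cells), close to level over the 4 libraries. Cd274 stood at 86.3 and 42.9 CPM and then 93.2 and 58.0 CPM, higher at ZT4 than at ZT16 on both days. The rule for collection times given below called that difference on day 1 only. Pdcd1lg2 stood at 78.1 and 62.0 CPM and then 223 and 53.0 CPM, and its highest value rests on the day 3 ZT4 library. Cd86 stood at 18.5 and 14.2 CPM and then 1.53 and 12.6 CPM. The PD-1 ligands were concentrated in cluster 15 on day 1 (1017 and 373 cells), where Cd274 was 345 and 370 CPM and Pdcd1lg2 335 and 622 CPM, against 23.1 and 18.7 CPM and 21.8 and 23.9 CPM in cluster 3. Cd80 had the opposite order, at 36.1 and 49.9 CPM in cluster 15 and 140 and 148 CPM in cluster 3. Within cluster 15 neither PD-1 ligand was lower at ZT16, where the cluster had fewer cells. Between day 1 and day 3, 11 of 26 genes with enough UMIs were called higher and 0 lower, where 19.4% and 1.85% of all genes were, and the median log2 ratio over all genes was itself 0.63 and 0.54. With TMM scaling, which sets aside such a shift, 4 genes were called higher, and with no doublets removed, cells thinned or free RNA subtracted, 7 genes each.

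T cell-like cells were high in class I genes. H2-K1 stood at 1982 and 2366 CPM on day 0 (91 and 50 cells) and 2811 and 2414 CPM on day 3 (123 and 182 cells), and H2-Q7 at 558 and 735 CPM and then 938 and 921 CPM. Of 22 genes with enough UMIs, 6 were called higher on day 3 (Ctss, Ifi30, Tap1, Psmb8, Psmb9 and Psmb10), and 0 lower, where 4.65% and 1.6% of all genes were. Psmb8 stood at 409 and 491 CPM and then 1056 and 1075 CPM. The summed level of 8 genes of immune cells, some of which T cells express, was 2846 and 2147 CPM on day 0 and 3844 and 4902 CPM on day 3. Of these, the myeloid genes C1qa (3.67 and 4.06 CPM, then 135 and 273 CPM), C1qb, Tyrobp and Fcer1g were called higher, and their part in the calls of Ctss and Ifi30 was not tested. Of the receptors and partners on the T cell side, 3 of 9 tested were called higher. These were Ifng (7.34 and 20.3 CPM, then 204 and 226 CPM), Ctla4, the inhibitory receptor for Cd80 and Cd86 (31.2 and 28.4 CPM, then 183 and 105 CPM), and Icos (97.2 and 73.1 CPM, then 288 and 280 CPM).

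Endothelial-like cells, which line vessels, had several members at their lowest on day 1. There were 2846 and 3423 such cells in the day 0 libraries, 265 and 532 in those of day 1 and 222 and 157 in those of day 3. They sat mostly in clusters 4 and 11 on day 0 (1657 and 749 cells at ZT4), in clusters 22 and 11 on day 1 (149 and 74) and in clusters 4, 22 and 11 on day 3 (85, 65 and 58). H2-T23 stood at 353 and 308 CPM on day 0, 43.9 and 50.5 CPM on day 1, and 354 and 373 CPM on day 3, so that both day 1 libraries lay far below the other 4. Psmb9 stood at 151 and 90.2 CPM, 21.5 and 43.9 CPM, and 171 and 128 CPM. H2-D1 stood at 1920 and 1528 CPM, 712 and 1006 CPM, and 1855 and 1909 CPM, B2m at 1270 and 1101 CPM, 552 and 869 CPM, and 1767 and 1857 CPM, and H2-K1 at 1117 and 910 CPM, 626 and 766 CPM, and 1303 and 1512 CPM. Cd274, the PD-1 ligand, stood at 55.1 and 36.1 CPM, 12 and 11 CPM, and 36.5 and 39.0 CPM. In each of these genes both day 1 libraries were the lowest, though H2-D1, B2m and H2-K1 were not called lower on day 1 than on day 0. H2-Q7 was not among them, at 49.7 and 34.1 CPM on day 0 and 56.6 and 128 CPM on day 1.

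On day 1 against day 0, 9 of 25 endothelial genes with enough UMIs were called lower (H2-T23, Cd274, Psmb9, H2-Q4, Tapbp and the 4 class II genes H2-Aa, H2-Ab1, H2-Eb1 and Cd74) and 0 higher, where 10.6% and 6.33% of all genes were. Of 15 interferon response genes 12 were called lower, such as Cxcl9 at 163 and 79.2 CPM and then 7.18 and 5.88 CPM, and in the other class I pathway Irf1 (290 and 316 CPM, then 75.8 and 85.0 CPM) was called lower and the chaperones Calr and Canx higher. With no doublets removed 4 genes were called lower, and with cells thinned or free RNA subtracted 5. From day 1 to day 3, a comparison that shares the day 1 libraries, 11 of 19 genes were called higher and 0 lower, where 4.42% and 4.0% of all genes were. H2-T23 (log2 ratios 3.00 and 2.88), Psmb9 (2.96 and 1.55), Tap1 (1.41 and 1.88), Cd274 (1.58 and 1.83) and B2m (1.68 and 1.09) were among them. With cells thinned 3 genes were called higher, and with clusters at resolution 2.0 or at least 100 UMIs 7. Of 25 genes, Ctss, Ifi30 and H2-Q7 were called higher on day 3 than on day 0 and 0 lower, where 2.16% and 3.03% of all genes were.

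Class II UMIs in endothelial-like cells lay in few barcodes in some libraries. On day 0 at ZT4, 5 of 2846 barcodes held 84.1% of them, and the summed level was 492 CPM with and 79.1 CPM without these 5. On day 3 at ZT16, 3 barcodes held 79.0%, with 1515 CPM with and 333 CPM without them. On day 0 at ZT16, 2 of 3423 barcodes held 51.9%. In both day 1 libraries and on day 3 at ZT4, 0 barcodes reached 5000 CPM, and the summed levels were 14.4, 18.8 and 171 CPM. The summed level of 8 genes of immune cells was 180 and 96.8 CPM on day 0, 253 and 271 CPM on day 1, and 1154 and 967 CPM on day 3. The summed class II level was lower on day 1 than on day 0 at both times, and on day 3 it was lower at ZT4 than at ZT16. The part of immune cell RNA in the calls of Ctss, Ifi30, the class II genes and the class I genes was not tested.

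Mural-like cells (pericytes and vascular smooth muscle) were higher in class I genes on day 3. B2m stood at 288 and 330 CPM on day 0 (546 and 749 cells), 289 and 331 CPM on day 1 (61 and 108 cells), and 916 and 1141 CPM on day 3 (57 and 61 cells). Psmb8 stood at 28.9 and 12.3 CPM, 87.9 and 77.3 CPM, and 114 and 177 CPM, and Tap1 at 12.3 and 7.80 CPM, 34.0 and 15.2 CPM, and 55.0 and 58.1 CPM. Of 14 genes with enough UMIs 7 were called higher on day 3 against day 0, all in class I (B2m, Tap1, Tapbp, Psmb8, Psmb9, Psmb10 and H2-T23), and 0 lower, where 2.56% and 2.3% of all genes were. Of 10 interferon response genes tested 9 were called higher. The summed immune cell genes were also higher, at 85.2 and 42.9 CPM on day 0 and 609 and 1681 CPM on day 3, and their part in the result was not tested. The count was 1 with cells thinned, 4 with at least 100 UMIs, 13 with no doublets removed and 16 with at least 1 UMI. On day 1 against day 0, 3 of 12 were called higher (Tap1, Psmb8 and Psmb10) and 3 lower (H2-Eb1, Cd74 and Ifi30), where 3.16% and 5.99% of all genes were. From day 1 to day 3, 3 of 9 were called higher (B2m, Tapbp and H2-T23) and 0 lower, where 3.31% and 1.29% of all genes were.

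In fibro-adipogenic-like cells, the connective tissue progenitors of muscle, the reductase gene Ifi30 was highest on day 0. It stood at 244 and 278 CPM on day 0 (3044 and 2462 cells), 51.8 and 66.7 CPM on day 1 (90 and 155 cells), and 98.8 and 91.6 CPM on day 3 (531 and 450 cells). The cells of day 0 were nearly all in clusters 9, 10 and 18, and those of day 1 and day 3 mostly in cluster 20 (76 of 90 and 135 of 155, then 478 of 531 and 418 of 450). Mural-like cells had the same order, at 372 and 363 CPM, 111 and 170 CPM, and 149 and 186 CPM, and tenocyte-like cells of day 0 held 259 and 146 CPM, while Ctss in these 3 classes on day 0 was 6.63 CPM or less. H2-K1 in fibro-adipogenic-like cells stood at 368 and 309 CPM, 308 and 151 CPM, and 214 and 222 CPM. On day 1 against day 0, 9 of 25 genes with enough UMIs were called lower and H2-Q7 higher, where 19.1% and 9.32% of all genes were (2 lower with cells thinned, 5 with free RNA subtracted). On day 3 against day 0, 9 of 26 were called higher (H2-Aa, H2-Ab1, H2-Eb1, H2-DMa, H2-DMb1, Cd74, Ctss, Tap1 and H2-Q7) and Ifi30 lower, where 7.83% and 12.6% of all genes were. The class II part of that came with immune cell genes, of which 8 of 8 were called higher, and 7 and 9 barcodes held 62.3% and 75.2% of the class II UMIs. Against day 1, 11 of 23 were called higher on day 3 (the class II chains, H2-DMa, H2-DMb1, Cd74, Ctss, Tap1, Psmb9, H2-T23 and Cd83) and 0 lower, where 8.72% and 6.84% of all genes were, and both comparisons share the day 3 libraries. The number called higher against day 0 was 2 with free RNA subtracted, 15 with at least 1 UMI and 16 with no doublets removed.

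In myogenic-like cells, the muscle stem cells and their progeny, members were called lower on day 3 at a share near that of all genes. Nearly all cells of day 0 were in cluster 12 (891 of 895 and 968 of 1041), and those of day 3 mostly in clusters 21, 32 and 35 (462, 118 and 116 of 720 at ZT4). H2-K1 stood at 197 and 165 CPM on day 0 (895 and 1041 cells) and 51.4 and 55.4 CPM on day 3 (720 and 509 cells), H2-D1 at 268 and 253 CPM and then 116 and 116 CPM, and H2-Q4 at 52.4 and 47.1 CPM and then 2.44 and 2.71 CPM. Both day 3 libraries lay below both day 0 libraries in these genes and in H2-M3 (17.2 and 12.5 CPM, then 4.74 and 3.03 CPM) and Erap1. These 5 of 23 genes with enough UMIs were called lower, where 18.2% of all genes were, and 3 higher (Ctss, Ifi30 and Psmb10), where 14.8% were. The medians over the class I genes tested were -1.21 and -0.72, against -0.14 and 0.01 over all genes. B2m stood at 153 and 159 CPM and then 139 and 132 CPM. The proteasome subunit Psmb10 stood at 29.5 and 23.2 CPM and then 98.2 and 87.5 CPM. Median UMIs per cell in the class were 5597 and 6773 on day 0 but 44189 and 41914 on day 3. A level in CPM is a share of that total. The number called lower was 8 with a mitochondrial limit of 5% and 16 with free RNA subtracted.

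Between ZT16 and ZT4 of the same day, few members differed in antigen-presenting cells. A gene was called by collection time at a 1.5-fold difference with a 95% interval that excludes 0 and at least 30 UMIs, a rule that takes a single pair of libraries. In cDC2-like cells, 3 of 30 genes were higher at ZT16 on day 0 (H2-Q4, H2-Q7 and Cd80), where 4.05% of all genes were. On day 1, 4 of 31 were lower (Tap1, H2-Q4, H2-Q7 and Cd40) and 1 higher (H2-DMb2), where 7.22% and 5.41% of all genes were. On day 3, 2 of 33 were higher (Nlrc5 and H2-Q7), where 6.98% were. In monocyte-macrophage-like cells, 3 of 31 were lower at ZT16 on day 1 (H2-Q4, Cd86 and Cd274) and H2-M3 higher, where 7.39% and 5.34% of all genes were, and on day 3, 2 of 33 were higher (H2-Oa and Nlrc5) and Pdcd1lg2 lower, where 2.5% and 3.56% were. In resident macrophage-like cells, 2 of 31 were lower at ZT16 on day 0 (Nlrc5 and Cd40), where 5.18% were, and 7 with the members used for clustering. On day 3, 2 of 30 were higher (Nlrc5 and Ciita), where 4.17% were. In cDC1-like cells of day 3, 0 of 31 were called, where 6.4% of all genes were higher and 1.81% lower. These counts of 0 to 4 genes are of the order of the shares over all genes.

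Nlrc5 was called higher at ZT16 in 6 classes on day 3 and lower in 0. H2-Aa and Cd74 were also called in 6 classes each, but in both directions. The Nlrc5 level was 16.9 CPM at ZT4 and 25.7 CPM at ZT16 in monocyte-macrophage-like cells, a log2 ratio of 0.61 (0.48 to 0.73). In resident macrophage-like cells it was 15 and 26.5 CPM (0.82, 0.52 to 1.13), and in cDC2-like cells 10.6 and 17.3 CPM (0.71, 0.27 to 1.15). It was also called higher at ZT16 in mature dendritic-like cells, with 3 other members (H2-DMb2, Ciita and Cd274) of 30, where 8.45% of all genes were. In T cell-like cells it was called higher with Cd86 among 26 genes, where 6.39% of all genes were, and in fibro-adipogenic-like cells with Cd83 among 28, where 3.41% were. In cDC1-like cells the ratio was 0.51 (-0.11 to 1.11) and was not called. These classes come from the same 2 libraries, so they are 1 pair of libraries and not repeats. In resident macrophage-like cells of day 0 Nlrc5 was lower at ZT16, at 6.14 and 3.19 CPM. The interferon response list moved the same way in the day 3 pair, with 9 of 15 genes called higher at ZT16 in monocyte-macrophage-like and 8 of 15 in cDC2-like cells. Within monocyte-macrophage-like cells of day 3, Nlrc5 was 8.37 and 12.5 CPM in cluster 1 and 31.7 and 36.1 CPM in cluster 2, and cluster 2 had 1647 cells at ZT4 and 2315 at ZT16.

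In uninjured muscle, the members called in most tissue cells were lower at ZT16. In endothelial-like cells 10 of 26 genes were called lower, where 10.8% of all genes were, in myogenic-like cells 10 of 23, where 6.32% were, and in fibro-adipogenic-like cells 6 of 26, where 4.87% were. Mural-like cells had 4 of 18 lower (Cd74 and the 3 immunoproteasome subunits), where 7.31% of all genes were, tenocyte-like cells 4 of 9, where 3.97% were, and glial-like cells 8 of 19, where 3.28% were. With free RNA subtracted, the count was 6 in endothelial-like and 0 in fibro-adipogenic-like cells, and with no doublets removed it was 2 in fibro-adipogenic-like cells. The genes of immune cells were lower at ZT16 in the same pair, with 8 of 8 called in myogenic-like and 7 of 8 in fibro-adipogenic-like cells. In myogenic-like cells, 5 and 2 barcodes held 93.4% and 92.5% of the class II UMIs, and the summed class II level was 598 and 295 CPM with and 40.0 and 22.3 CPM without them. The number called lower in myogenic-like cells was 5 without these barcodes, 4 with no doublets removed, 4 with cells thinned and 6 with the members used for clustering.

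Mature muscle-like barcodes were named by genes of muscle fibres such as Acta1 and Ckm, and whether they are whole cells was not tested. They had few members with enough UMIs. From day 0 to day 3, 7 of 10 were called higher and 0 lower, where 4.48% and 2.35% of all genes were, and 1 barcode of the day 3 ZT4 library held 97.3% of the class II UMIs. Between collection times, 4 of 14 were lower at ZT16 on day 0 (the class II chains and Cd74) and Ctss and Cd83 higher, where 2.63% and 4.92% of all genes were, and on day 3 all 7 tested were lower, where 10.4% were. In glial-like cells of day 0, 1 barcode held 96.9% and 96.8% of the class II UMIs at ZT4 and ZT16.

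After injury the calls by collection time in tissue cells went in both directions. Fibro-adipogenic-like cells of day 1 had 6 of 15 members lower at ZT16 (H2-K1, Tap2, Tapbp, H2-T23, H2-Q4 and H2-Q7), where 13.6% of all genes were. In endothelial-like cells, 4 of 18 were higher on day 1 (B2m, Tap2, Psmb9 and H2-Q7) and Tap1 and Erap1 lower, where 3.06% and 6.73% were, and on day 3, 6 of 21 were higher (the class II chains, Cd74, Ifi30 and Tapbp), where 5.99% were, with 3 barcodes holding 79.0% of the class II UMIs at ZT16. Myogenic-like cells of day 3 had H2-Aa, Cd74 and H2-T23 of 27 higher and H2-M3 lower, where 6.29% and 0.974% were. There 3 and 5 barcodes held 37.7% and 67.4% of the class II UMIs, and without them H2-Aa was 20.6 and 16.5 CPM and Cd74 51.2 and 41.3 CPM, so that both were lower at ZT16. Mural-like cells had Ifi30 of 8 higher on day 1, where 4.91% were, and Cd74 and Ctss of 15 on day 3, where 4.62% were.

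Among the remaining immune cells, neutrophil-like cells of day 1 had 4 of 27 members lower at ZT16 (H2-Eb1, Nlrc5, H2-Q4 and Cd274) and 3 higher (Ifi30, Psmb9 and H2-T23), where 5.99% and 7.15% of all genes were. Cluster 15, where Cd274 was concentrated, had 1017 cells at ZT4 and 373 at ZT16. On day 3, H2-Aa and Pdcd1lg2 of 21 were lower and H2-K1 and Cd83 higher, where 7.19% and 6.94% were. T cell-like cells had 7 of 20 lower on day 0 (the class II chains, Cd74, H2-DMa, H2-DMb1 and Psmb9) and H2-Q4 higher, where 3.28% and 6.94% were. At ZT4 of that day 2 of 91 barcodes held 98.5% of the class II UMIs, and the summed level was 2868 CPM with and 44.9 CPM without them, against 36.5 CPM at ZT16. On day 3, 6 of 26 were lower, where 3.81% were, and 3 barcodes in each library held 95% and 90.7% of the class II UMIs, with summed levels of 195 and 192 CPM without them. Natural killer-like cells of day 3 had 5 of 24 lower (the class II chains, Cd74 and Pdcd1lg2) and Tapbp higher, where 3.01% and 6.74% were. At ZT4, 2 of 152 barcodes held 87.8% of the class II UMIs, and the summed level was 1424 CPM with and 178 CPM without them, against 103 CPM at ZT16.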

How the data were processed

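The deposited files hold raw UMI counts per gene and barcode, 1 matrix for each of 6 libraries. The authors made these counts with Cell Ranger, given as version 1.0.0 with genome build mm10 in the submitters' processing notes and as 6.1.2 per the file headers. The gene annotation and the use of strand upstream are not given in the sources used here. Only the counts were analysed, and 0 columns of other samples were present.

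A barcode needed 200 genes, 500 UMIs and a mitochondrial share of 10% or less to be kept. Doublets were scored with scrublet in scanpy 1.11.5 and the highest scores left out at 0.8% per 1000 barcodes, because the automatic threshold marked 3 and 1 barcodes on day 3, and 5563 barcodes were removed this way. Libraries shared 21 to 65 barcode sequences per pair (0.243% to 0.566% of the smaller). Clustering used 2000 variable genes without the members and without H2 genes, 30 components, 15 neighbours and leidenalg 0.10.2 at resolution 1.0. Mixed clusters of at least 100 cells were divided again at resolution 0.5, which was decided after looking at the clusters. A class name needed at least 3 detected markers.

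UMIs were summed per class and library, 0.5 UMI was added for log2 ratios, and 95% intervals are exact (Poisson for CPM, conditional binomial for ratios, Clopper-Pearson for shares). No test was made, since each group is 1 library. The scripts were tested on simulated data. edgeR 4.0.16 was used for TMM factors in 1 alternative only. The members and all gene lists were chosen with earlier results of these data known. Every member was counted. H2-Aa, H2-Ab1, H2-Eb1, Cd74, Ciita, H2-K1, H2-D1, B2m, Nlrc5, Psmb8, Tap1, Cd86 and Cd274 were to be given for immune and endothelial cells whatever they did, other members where called (up to 5 per direction) or where at their highest level, and up to 3 genes per direction from each other list. This plan was not carried out in full. Levels of Ciita, Nlrc5, Psmb8 and Cd86 in endothelial-like cells, for example, are not printed. Coordinates and promoters follow GENCODE vM21 on GRCm38 and RefSeq GRCm38.p6.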

Additional observations from a re-analysis of the deposited data

Results flagged for a closer look

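Several genes were called lower between the same days in 1 class and higher in another, at both collection times. Each class is 1 library per day and time, so these differences between classes were not tested. Values are log2 ratios at ZT4 and ZT16.

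On day 3 against day 0, the class II genes moved in opposite directions in resident macrophage-like and fibro-adipogenic-like cells. H2-Aa was -3.14 and -2.37 in resident macrophage-like cells and 2.97 and 4.94 in fibro-adipogenic-like cells. H2-Ab1 was -3.16 and -2.52 against 2.8 and 4.5, and H2-Eb1 was -3.39 and -2.71 against 2.4 and 3.88. Cd74 was -3.2 and -2.37 against 2.93 and 4.89, and H2-DMb1 was -1.8 and -1.41 against 3.28 and 4.2. In fibro-adipogenic-like cells H2-Aa started from 8.99 and 3.08 CPM and reached 70.3 and 95.2 CPM, with 7 and 9 barcodes holding 62.3% and 75.2% of the class II UMIs on day 3. The summed immune cell genes in these cells were 44.9 and 22.7 CPM on day 0 and 554 and 649 CPM on day 3. With free RNA subtracted, fewer members were called higher in them. The part of RNA from other cells in this rise was not tested. H2-Ob was -1.46 and -1.95 in resident macrophage-like cells and 1.54 and 1.25 in cDC2-like cells.

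Ifi30 moved in opposite directions between classes. On day 1 against day 0 it was -2.23 and -2.05 in fibro-adipogenic-like and -1.73 and -1.09 in mural-like cells, and 2.15 and 1.68 in cDC2-like cells. On day 3 against day 0 it was -1.31 and -1.6 in fibro-adipogenic-like cells. It was 1.29 and 1.24 in myogenic-like, 1.47 and 2.42 in endothelial-like, 1.95 and 1.31 in cDC2-like and 2.64 and 1.58 in T cell-like cells. Psmb9 on day 1 against day 0 was -2.78 and -1.03 in endothelial-like cells and 1.05 and 1.28 in cDC2-like cells.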

How the results depend on the processing

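No paired analysis was possible because each group is 1 library and the labels give no replicate numbers. Of the log2 ratios of single genes recomputed under the alternatives, 3041 stayed within their counting interval, 1157 moved beyond it with no called gene changing sign, and 9 of called genes changed sign. The 9 were, with no doublets removed, H2-DMa (-0.0671), Ctss (-0.260) and Ifi30 (-0.544) in neutrophil-like cells on day 3 over day 1 at ZT16, Cd74 in endothelial-like cells on day 1 over day 0 at ZT16 (0.0234), and H2-Eb1 in neutrophil-like cells of day 1 at ZT16 over ZT4 (0.294). The others were H2-Q4 (0.347, cells thinned, ZT4) and Cd83 (0.0815, free RNA subtracted, ZT16) in fibro-adipogenic-like cells on day 1 over day 0, and Ctss in endothelial-like cells of day 0 at ZT16 over ZT4 (0.314 with the members used for clustering, 0.494 without barcodes over 5000 CPM class II). The cause was not tested for any of these or for the counts below.

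Counts of members called moved by over 1.5 times as follows, with the count first reported given once. With folds of 3 by day and 2 by collection time, a stricter rule that lowers counts by construction, monocyte-macrophage-like cells went from 23 to 14 higher on day 3 over day 1, resident macrophage-like cells from 8 to 4 lower and from 5 to 0 higher on day 3 over day 0, and cDC2-like cells from 4 to 1 higher (day 1 over day 0), 9 to 4 (day 3 over day 0) and 6 to 2 (day 3 over day 1). Neutrophil-like cells went from 11 to 5 higher, endothelial-like cells from 9 to 5 lower (day 1 over day 0) and 11 to 5 higher (day 3 over day 1), fibro-adipogenic-like cells from 9 to 4 lower (day 1 over day 0) and myogenic-like cells from 5 to 2 lower. By collection time, monocyte-macrophage-like cells went from 3 to 0 lower on day 1 and 2 to 0 higher on day 3, resident macrophage-like cells from 2 to 1 lower on day 0, cDC2-like cells from 3 to 1 higher on day 0, 4 to 1 lower on day 1 and 2 to 0 higher on day 3, and neutrophil-like cells from 4 to 2 lower on day 1.

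With no doublets removed, the counts were 3 higher in resident macrophage-like cells, 2 higher in cDC2-like cells on day 1 over day 0, 7 higher in neutrophil-like cells, 4 lower in endothelial-like cells on day 1 over day 0, 16 higher in fibro-adipogenic-like and 13 higher in mural-like cells on day 3 over day 0, and by collection time 1 higher in monocyte-macrophage-like cells of day 3 and 4 lower in myogenic-like and 2 lower in fibro-adipogenic-like cells of day 0. With cells thinned to 1000 UMIs they were 7 higher in neutrophil-like cells, 5 lower (day 1 over day 0) and 3 higher (day 3 over day 1) in endothelial-like cells, 2 lower in fibro-adipogenic-like cells on day 1 over day 0 and 1 higher in mural-like cells, and by collection time 1 lower in resident macrophage-like cells of day 0, 2 lower on day 1 and 1 higher on day 3 in cDC2-like cells, and 4 lower in myogenic-like cells of day 0. With free RNA subtracted they were 7 higher in neutrophil-like cells, 5 lower in endothelial-like and 5 lower in fibro-adipogenic-like cells on day 1 over day 0, 2 higher in fibro-adipogenic-like and 16 lower in myogenic-like cells on day 3 over day 0, and by collection time 1 higher in monocyte-macrophage-like cells of day 3, 6 lower in endothelial-like and 0 lower in fibro-adipogenic-like cells of day 0. With the members used for clustering they were 5 lower in resident macrophage-like cells on day 3 over day 0, and by collection time 0 higher in monocyte-macrophage-like cells of day 3, 7 lower in resident macrophage-like and 6 lower in myogenic-like cells of day 0 and 2 lower in cDC2-like cells of day 1.

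With at least 100 UMIs the counts were 7 higher in endothelial-like cells on day 3 over day 1, 4 higher in mural-like cells, and by collection time 1 lower in resident macrophage-like cells of day 0 and 2 lower in cDC2-like cells of day 1, and with at least 1 UMI they were 15 higher in fibro-adipogenic-like and 16 higher in mural-like cells on day 3 over day 0. TMM scaling gave 4 higher in neutrophil-like cells. A mitochondrial limit of 5% gave 8 lower in myogenic-like cells on day 3 over day 0 and 1 lower in resident macrophage-like cells of day 0 by collection time. Resolution 2.0 gave 7 higher in endothelial-like cells on day 3 over day 1 and 8 lower in neutrophil-like cells of day 1 by collection time. Leaving out barcodes over 5000 CPM class II, an alternative chosen after seeing the data that lowers class II by construction, gave 5 lower in myogenic-like cells of day 0 by collection time. The number of classes over 10000 CPM class II on day 1 at ZT16 was 1, and 3 with no doublets removed, 2 with the members used for clustering and 2 at resolution 2.0. On day 1 at ZT4 it was 2, and 1 with the mitochondrial limit of 5%. Clusters with class II in at least 50% of cells on day 1 at ZT16 were 1, and 2 with cells thinned to 2000 UMIs. Fibro-adipogenic-like cells on day 1 over day 0 at resolution 2.0 and mural-like cells on day 3 over day 0 at the 5% limit gave no value because a class had fewer than 50 cells. Groups of under 100 cells, such as T cell-like on day 0 and mature dendritic-like and mural-like on day 3, rest on few UMIs for the lower members.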

Other observations

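Some cells stood outside the named classes. Cluster 104 of day 3 (97 and 134 cells at ZT4 and ZT16) stayed unnamed because its leading genes held more markers of another class than of cDC2. It held 13214 and 13245 CPM of H2-Aa, 193 and 184 CPM of Cd40, 179 and 173 CPM of Cd86, 59.0 and 59.1 CPM of Cd274, 300 and 260 CPM of Tap1 and 32.4 and 49.4 CPM of Nlrc5. Its Cd40, Cd86 and Tap1 levels were above those of cDC2-like cells in the same libraries (Cd40 at 43.9 and 49.8 CPM, Cd86 at 61.0 and 56.7 CPM, Tap1 at 135 and 138 CPM).

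Among neutrophil-like cells of day 1, the small cluster 26 (163 and 176 cells) held 189 and 116 CPM of Tap1, 672 and 713 CPM of Psmb8 and 833 and 758 CPM of H2-K1, where the whole class held 41.6 and 37.5 CPM, 199 and 207 CPM, and 461 and 403 CPM. In natural killer-like cells of day 3, H2-Q7 was 911 and 936 CPM and H2-K1 2342 and 2447 CPM.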
